A study of Mus musculus with 6 samples.

Results

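The imprinted growth regulators examined here are 10 genes, Dlk1, Igf2, Peg3, Mest and Plagl1, which are expressed mainly from the paternal copy, and Meg3, H19, Igf2r, Grb10 and Cdkn1c, which are expressed mainly from the maternal copy. They were chosen by name, and every probe that the platform annotation assigns to them was taken. The annotation listed 15 such probes among 36227 spots, 14 of them with 1 gene, and 13 probes of 8 genes were bright enough to be tested, among 17727 probes tested in all. Igf2 had no listed probe, and the only probe of Peg3 was too dim to test.

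RNA was measured on single-colour CodeLink arrays in hearts of mouse embryos at embryonic day 11.5. In the 3 mutant samples a Cre recombinase knocked into the Nkx2.5 locus had inactivated Dicer, and the 3 others were control hearts. The sources used here give neither the Dicer allele, the strain nor the genotype of the controls, including whether they carried the Cre. They also leave unstated whether each array is a separate embryo or a pool, so p-values reflect the spread among these 6 arrays alone, part of which may be technical. Xist, expressed in females, read 10.42, 6.20 and 10.02 log2 in the mutants, against 5.91, 8.73 and 9.88 log2 in the controls, and was not above background in mutant 2 and control 1. The Y-linked Eif2s3y read 6.36, 8.86 and 6.22 log2 in the mutants, against 8.93, 8.13 and 6.09 log2 in the controls. Arrays of each group thus differed in these sex-linked transcripts, and control 2 carried both. The part of sex in the results was not tested. Nkx2.5 is a transcription factor of cardiac progenitors, so a Cre placed in its locus leaves Dicer intact in heart cells of other lineages. In whole hearts, fewer cells of a type and less RNA per cell cannot be told apart.

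An imprinted gene is transcribed mainly from the chromosome inherited from a particular parent, because methylation laid down in the egg or the sperm silences or spares the other copy. As a group, paternally expressed genes tend to promote growth of the embryo and placenta, and maternally expressed genes tend to restrain it. Several of these genes also carry hairpins from which Dicer cuts miRNAs, so their own transcripts can be precursors of miRNAs. The arrays measured the longer host transcripts, not the mature miRNAs and not the parental copy of origin, so the comparison asks only whether total host transcript levels differed.

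The hairpins are shown because they are the part of these genes on which Dicer acts directly. By RefSeq on assembly GRCm38.p6, 4 of the 10 genes (Igf2, Mest, Meg3 and H19) each overlap 1 hairpin, and 6 overlap none. The 8 mature miRNAs are printed 5′ to 3′ with the seed, bases 2 to 8, in capitals. The 8 seeds are all different, so no pair of these miRNAs forms a seed family.
mmu-miR-483-5p, in Igf2, minus strand of chr7:142654968-142654989: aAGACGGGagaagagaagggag
mmu-miR-483-3p, in Igf2, minus strand of chr7:142654932-142654952: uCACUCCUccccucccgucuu
mmu-miR-335-5p, in Mest, plus strand of chr6:30741314-30741336: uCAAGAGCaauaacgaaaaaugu
mmu-miR-335-3p, in Mest, plus strand of chr6:30741354-30741375: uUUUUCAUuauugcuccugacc
mmu-miR-770-5p, in Meg3, plus strand of chr12:109563710-109563731: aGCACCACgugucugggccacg
mmu-miR-770-3p, in Meg3, plus strand of chr12:109563744-109563765: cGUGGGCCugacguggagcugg
mmu-miR-675-5p, in H19, minus strand of chr7:142577112-142577133: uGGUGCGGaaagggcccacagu
mmu-miR-675-3p, in H19, minus strand of chr7:142577078-142577099: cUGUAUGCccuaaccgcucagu

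No probe of these genes passed the test, which was limma on normalized log2 intensities with Benjamini-Hochberg adjustment over all 17727 probes and a threshold of 0.05. Over all probes tested, 9 passed, or 0.0508%: 5 higher in the mutants (0.0282%) and 4 lower (0.0226%). At an unadjusted p under 0.05 there were 2 of the 13 probes, the brighter probes of Dlk1 and Grb10, against 10% of all probes tested (6.75% higher and 3.26% lower in the mutants). The mutant and control values did not overlap for 3 of the 13, against 15.1% of all probes (9.87% higher and 5.27% lower in the mutants). These were the brighter Dlk1 probe and 1 Meg3 probe, lower in the mutants, and the brighter Grb10 probe, higher in the mutants. The H19 probe was saturated on every array, so its difference is not read, and 12 probes of 7 genes remained. Of these, 5 gave a difference above 0 and 7 below 0, with a median of -0.13 on the log2 scale, against a median of 0.02 over all probes.

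**Figure D1:**
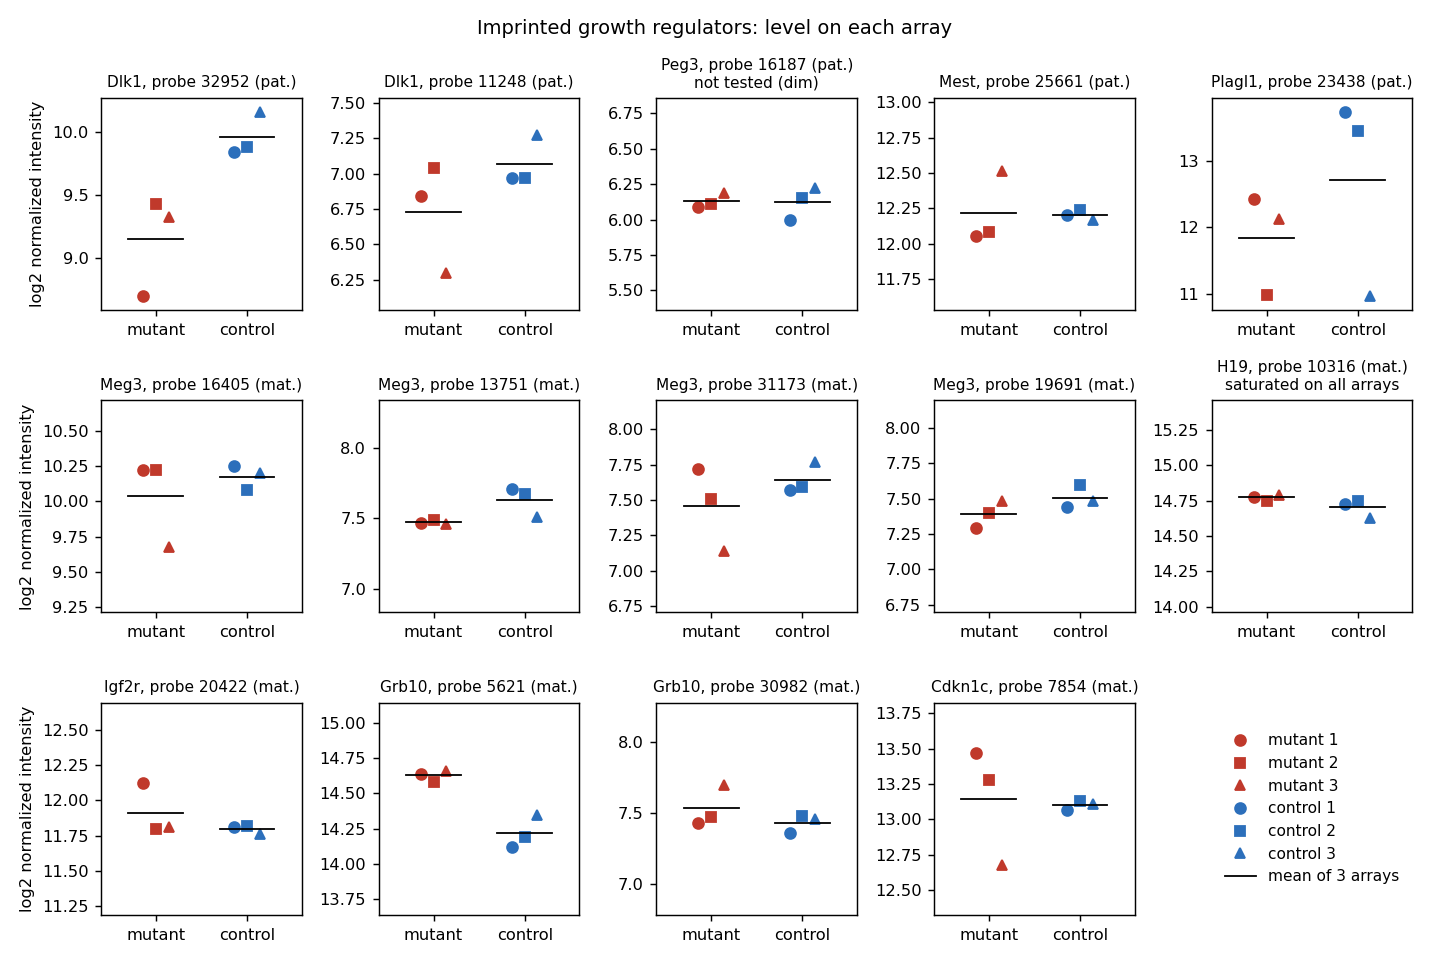
Normalized log2 intensity (vertical axis) of the 14 probes listed with 1 gene on each array, the 3 mutant hearts to the left of the 3 control hearts, with group means as bars and a separate scale in each panel. Mutant and control values do not overlap for the brighter probes of Dlk1 and Grb10 and for Meg3 probe 13751, Plagl1 spreads widely within both groups, and H19 is saturated on every array.

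Among the paternally expressed genes, Dlk1 was the one whose mutant and control values did not overlap. It encodes a membrane protein related to the Notch ligands that restrains differentiation of several cell types. Its brighter probe (number 32952, RefSeq transcript NM_010052) read 8.70, 9.43 and 9.33 log2 in mutants 1 to 3 and 9.84, 9.88 and 10.16 log2 in controls 1 to 3. All 3 mutants lay below all 3 controls. The difference was -0.81 ± 0.21 log2 (SE; limma, unadjusted p = 0.00672, adjusted p = 0.262), or 0.57 of the control level with a 95% interval of 0.404 to 0.806. In the authors' own normalized units the probe read 4.73, 8.54 and 7.86 in the mutants, against 11.4, 11.7 and 14.3 in the controls, which do not overlap either.

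The second Dlk1 probe (number 11248) was dim and not above background in mutant 3. It read 6.84, 7.04 and 6.30 log2 in the mutants, against 6.97, 6.97 and 7.27 log2 in the controls, which overlap. Its difference was -0.34 ± 0.20 log2 (SE; limma adjusted p = 0.595). The mean of both Dlk1 probes differed by -0.58 log2 (limma adjusted p = 0.289).

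Cushion mesenchyme is made of the cells that fill the developing valves and outflow septum. Its markers gave differences below 0 for all 7 measured of the 8 listed genes, against 47.6% of all genes. None of the 7 passed the test, and the median was -0.52 log2 (range -0.60 to -0.23). The groups did not overlap for 2 of the 7 (28.6%, against 15.2% of all genes), Postn and Lum, and overlapped for the other 5. The 4 readable erythroid markers were all below 0 too, with a median of -0.48, and none passed. Of 7 markers of endocardium and endothelium, 6 were below 0 and 1 above, with a median of -0.11, and none passed. The groups did not overlap for 2 of these 7 (28.6%), both lower in the mutants. Centred on each gene's mean, the median of the cushion list lay between -0.40 and 0.13 in the mutants, against between 0.15 and 0.40 in the controls. Postn, a matrix protein of this tissue, read 10.04, 10.02 and 10.09 log2 in the mutants, against 10.48, 10.51 and 10.85 log2 in the controls. Col1a2, a collagen chain, read 8.83, 9.63 and 8.41 log2 in the mutants, against 9.47, 9.41 and 9.53 log2 in the controls, with mutant 2 above every control. Lum, a collagen-binding proteoglycan on the list, was among the 3 genes whose profile over the 6 arrays lay closest to that of Dlk1, with a mean absolute difference of 0.11 log2 between centred profiles. The other two were Stmn4 (0.10), a stathmin family gene, and Arhgap24 (0.11). Of 15011 other genes, 51 had profiles within 0.2 log2 of Dlk1. The part of the cushion cells in the Dlk1 difference was not tested.

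**Figure D2:**
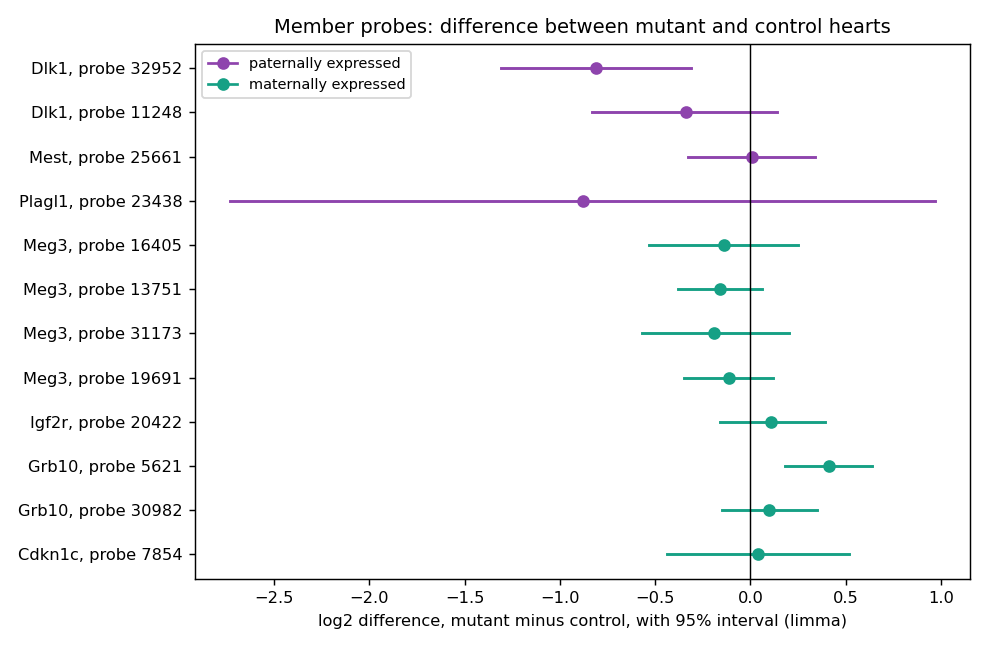
Mutant minus control difference in log2 intensity (horizontal axis) for the 12 tested and unsaturated probes, with 95% intervals from limma. The intervals of the brighter probes of Dlk1 (-1.31 to -0.31) and Grb10 (0.18 to 0.64) exclude 0, but neither passed after adjustment over all probes.

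Grb10, a maternally expressed gene, also separated the groups, with higher values in the mutants. It encodes an adaptor protein that binds activated insulin and IGF receptors and dampens their signal. Its bright probe (number 5621) read 14.64, 14.58 and 14.66 log2 in the mutants, against 14.12, 14.19 and 14.35 log2 in the controls. Every mutant lay above every control. The difference was 0.41 ± 0.10 log2 (SE; limma, unadjusted p = 0.00423, adjusted p = 0.228), or 1.33-fold with a 95% interval of 1.13 to 1.56.

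This Grb10 probe sat near the top of the scanner's range. Its subtracted intensity was 24904, 26588 and 22736 on the mutant arrays, just above the dimmest spot flagged as saturated on each of them (24599, 25651 and 21748). On the control arrays it was 19636, 20081 and 19642, below the dimmest saturated spot (25096, 23803 and 22975). The probe itself was not flagged on any array. On mutant 1, 210 of the 228 spots at least as bright were flagged as saturated. The second Grb10 probe (number 30982), far below that limit, read 7.43, 7.47 and 7.70 log2 in the mutants, against 7.36, 7.48 and 7.46 log2 in the controls. Its values overlap, and the difference was 0.10 ± 0.11 log2 (SE; limma adjusted p = 0.769). Averaged over both probes, Grb10 differed by 0.25 log2 (limma adjusted p = 0.424).

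Igf2r, the receptor that takes up IGF2 and delivers it for degradation, lay between 11.76 and 11.82 log2 in all hearts but mutant 1. Its probe (number 20422) read 12.12, 11.80 and 11.81 log2 in the mutants, against 11.81, 11.82 and 11.76 log2 in the controls. The difference was 0.11 ± 0.11 log2 (SE; limma adjusted p = 0.76), and its 95% interval of -0.16 to 0.39 includes 0. A further spot listed for both Igf2r and Airn, the antisense transcript of that locus, was above background on 0 arrays. No probe was listed for Igf2, so the transcript of the ligand itself could not be read here. The 14347 spots without a listed gene were not searched for one. Igf2os is the antisense transcript of the Igf2 locus. It read 9.31, 9.44 and 8.20 log2 in the mutants, against 8.86, 9.16 and 9.70 log2 in the controls. These overlap, with a difference of -0.26 ± 0.37 log2 (SE; limma adjusted p = 0.835). The sources used here do not give the strand that each probe reads, so transcripts of overlapping sense and antisense genes cannot be told apart.

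Cdkn1c encodes the cyclin-dependent kinase inhibitor p57, which restrains cell division in many embryonic tissues. Its probe (number 7854) read 13.47, 13.28 and 12.68 log2 in the mutants, against 13.07, 13.13 and 13.11 log2 in the controls. Mutants 1 and 2 lay above every control and mutant 3 below every control, so the mutants spanned 0.79 log2 and the controls 0.06. The difference of the means was 0.04 ± 0.20 log2 (SE; limma adjusted p = 0.956). Its 95% interval, -0.44 to 0.52, is wide relative to the control spread.

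Plagl1, a zinc finger transcription factor that restrains cell cycle progression and controls other imprinted genes, was the most variable of the group. Its probe (number 23438) read 12.43, 10.98 and 12.12 log2 in the mutants, against 13.75, 13.46 and 10.96 log2 in the controls. The highest values were in controls 1 and 2, while control 3 was the lowest of all 6 arrays. The 6 arrays spanned 2.79 log2, or 6.93-fold, a span exceeded by 48 of 15012 genes (0.32%), against a median span of 0.48 log2. In the authors' normalized units the probe read 70.1, 26.8 and 59.8 in the mutants, against 229, 149 and 25.1 in the controls, with the same 2 arrays lowest.

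The group difference of Plagl1 was -0.88 ± 0.77 log2 (SE; limma adjusted p = 0.714), with a 95% interval of -2.73 to 0.97. Each mutant shares a number in its title with the control of the same replicate number, of unstated meaning, and within these sets Plagl1 differed by -1.33, -2.48 and 1.16 log2. Leaving out control 3 moved the difference to -1.76 log2 (limma adjusted p = 0.0908), leaving out control 1 to -0.37, leaving out control 2 to -0.51 and leaving out mutant 2 to -0.45. Without mutant 3 and control 3 it was -1.90 (limma adjusted p = 0.021), which passed, and without mutant 2 and control 2 it was -0.08. A slide was inferred from the start of the titles, whose meaning no label states. It was shared by mutants 1 and 2 and control 1, and within it the difference was -2.05 log2.

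Controls 1 and 2, the highest arrays for Plagl1, were also the highest on the main axis of variation across all probes and for 3 of 4 readable red blood cell genes. The first principal component held 54.1% of the variance and ordered the arrays as control 1, control 2, mutant 3, mutant 1, control 3 and mutant 2. Plagl1 ordered them as control 1, control 2, mutant 1, mutant 3, mutant 2 and control 3. Of 8 erythroid markers 7 had a probe, and 3 were saturated on every array. The centred median of the other 4 was 0.00, -0.35 and -0.14 log2 in the mutants, against 0.57, 0.37 and -0.22 log2 in the controls. Gata1, an erythroid transcription factor, read 7.81, 7.29 and 7.35 log2 in the mutants, against 8.51, 8.33 and 7.66 log2 in the controls. Alas2, an enzyme of heme synthesis, read 12.12, 11.50 and 12.36 log2 in the mutants, against 13.37, 13.03 and 11.79 log2 in the controls. Hba-a1, the readable globin, went the other way, lowest in control 1 (13.46) and highest in control 3 (13.96). Some markers of other tissues were also highest in controls 1 and 2. Tcf21 of the epicardium read 12.62 and 12.53 log2 there, and Sox2 of the foregut 8.62 and 8.59 log2. Both were lowest in control 3 (11.25 and 6.71 log2). Other markers of these tissues, such as Wt1 and Nkx2-1, were not highest in controls 1 and 2. The part of red blood cells or of other tissues in the Plagl1 values was not tested.

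The profile of Plagl1 was shared by other genes. Rhbdf2, an inactive rhomboid protein gene, had the closest centred profile, with a mean absolute difference of 0.06 log2 over the 6 arrays. Dnah2, a dynein heavy chain gene, followed at 0.07 and Gngt2, a G protein gamma subunit gene, at 0.08. Rhbdf2 read 10.91, 9.53 and 10.53 log2 in the mutants, against 12.38, 12.02 and 9.53 log2 in the controls, the same order of arrays within its ties. Of 15011 other genes, 33 lay within 0.2 log2 of the Plagl1 profile.

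**Figure D3:**
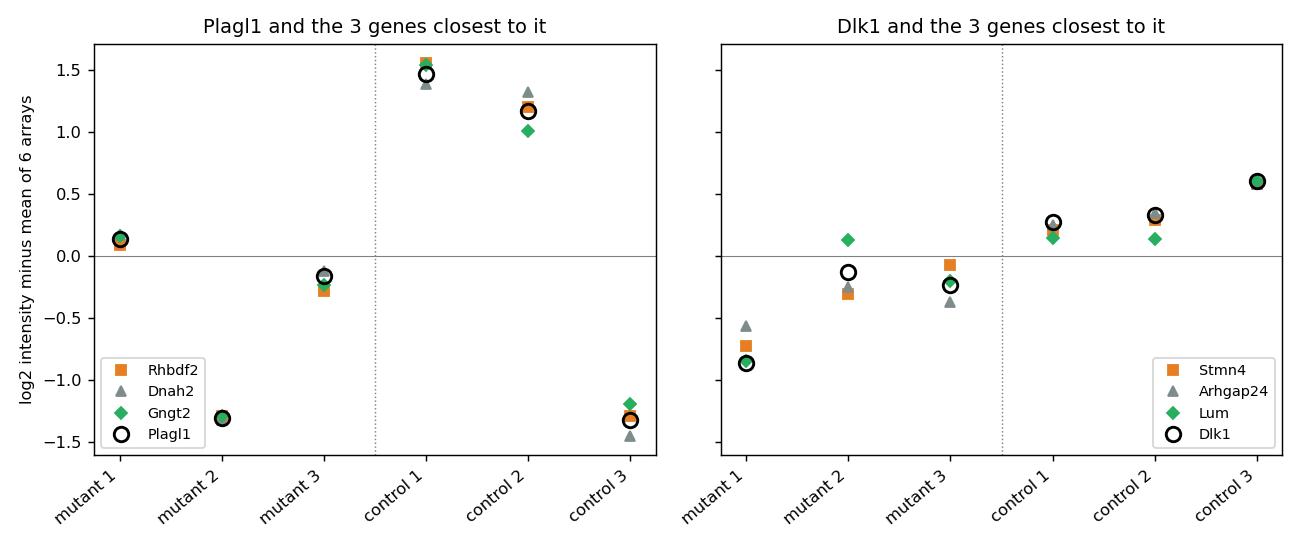
Log2 intensity of Dlk1 and Plagl1 and of the 3 genes whose profiles lie closest to each, centred on each gene's mean (vertical axis), on the 3 mutant and the 3 control arrays (horizontal axis). The Dlk1 profile is lower on all mutants than on any control, while the Plagl1 profile is high on controls 1 and 2 and low on mutant 2 and control 3.

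The remaining paternally expressed genes gave no separation of the groups. Mest, which encodes a hydrolase-like protein of embryonic mesoderm and hosts mmu-miR-335, read 12.05, 12.08 and 12.51 log2 in the mutants, against 12.20, 12.24 and 12.17 log2 in the controls. Mutants 1 and 2 lay below every control and mutant 3 above them. The difference was 0.01 ± 0.14 log2 (SE; limma adjusted p = 0.987), with a 95% interval of -0.33 to 0.34. Peg3, a zinc finger protein gene, read 0.199, 0.223 and 0.262 in the authors' normalized units in the mutants, against 0.153, 0.236 and 0.293 in the controls. Its probe was above background on control 3 alone, so it has no difference to read.

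H19 and Meg3 are long noncoding RNAs, and each hosts a hairpin shown above. H19 was flagged as saturated on all 6 arrays and read between 14.75 and 14.79 log2 in the mutants, against between 14.63 and 14.75 log2 in the controls. These are bounds set by the scanner, and a difference in H19 could not be measured. Meg3, transcribed from the maternal chromosome next to Dlk1, had 4 probes. The brightest (number 16405) read 10.22, 10.22 and 9.68 log2 in the mutants, against 10.25, 10.08 and 10.20 log2 in the controls. Mutant 3 stood lowest and the others overlap, with a difference of -0.14 ± 0.16 log2 (SE; limma adjusted p = 0.795). Without mutant 3 it was 0.04.

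The other Meg3 probes were dimmer. Probe 13751 read 7.47, 7.49 and 7.46 log2 in the mutants, against 7.71, 7.67 and 7.51 log2 in the controls, which do not overlap, with a difference of -0.16 ± 0.09 log2 (SE; limma adjusted p = 0.586). Probes 31173 and 19691 overlapped between the groups, with differences of -0.19 and -0.11 log2. The 4 Meg3 probes thus all gave a difference below 0, under each of the 5 scalings tried, and none passed the test. In fits on fewer arrays, probe 16405 turned positive without mutant 3 and, with probe 31173, without both mutant 3 and control 3 (0.05 and 0.03). Of all probes tested, 46.7% gave a difference below 0. The probes read the same gene and are not separate observations of it.

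Dlk1 and Meg3 lie in the imprinted domain of mouse chromosome 12 that ends at Dio3 and carries 58 miRNA hairpins between Dlk1 and Dio3 in RefSeq. The domain also holds Rtl1, a retrotransposon-derived gene expressed from the paternal copy, and the maternal noncoding RNAs Rian and Mirg. Across the domain 9 probes of 4 genes were tested, and all 9 gave a difference below 0, with a median of -0.16 log2. Of all probes tested, 46.7% did. Several of the 9 read the same gene and are not separate observations. Rtl1 gave -0.12 ± 0.10 log2 (SE; limma adjusted p = 0.71), and the 2 probes of Rian gave -0.28 ± 0.19 and -0.11 ± 0.20 (SE; adjusted p = 0.632 and 0.871). None of the 9 passed, and 2 had groups that do not overlap (22.2%, against 15.1% of all probes), the Dlk1 and Meg3 probes described above. Genes from the paternal and the maternal copy of this domain thus had differences of the same sign, of which that of Dlk1 was the largest in size. Dio3 was below background, and no probe was listed for Mirg.

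The 51 other imprinted genes on a list of the same kind gave 36 with a tested probe, and 0 passed limma's test, with 5 at an unadjusted p under 0.05 (13.9%). Counted by the brightest probe of each gene, 10.2% of all 15012 genes reached that unadjusted level. The groups did not overlap for 8 of the 36 (22.2%), against 15.2% of all genes. Of these 8, 5 were higher in the mutants and 3 lower, against 9.71% and 5.48% of all genes. Of 14 paternally expressed genes, 10 gave a difference above 0, with a median of 0.10 log2, and of 22 maternally expressed genes, 7 did, with a median of -0.07. The median over all genes was 0.01, with 7869 of the 15012 above 0. Among the members, by brightest probe, the medians were -0.81 over 3 paternally expressed genes and 0.08 over 4 maternally expressed genes. These signs were opposite to those of the other imprinted genes. The paternal median is the value of Dlk1 itself, beside -0.88 for Plagl1 and 0.01 for Mest. Over all 8 unsaturated probes of the maternally expressed members, 4 were above and 4 below 0, with a median of -0.04. The sign of the maternal median thus depended on the probes taken. Whether the lists differ was not tested.

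Among these genes the smallest p-values belonged to 2 genes from each parental class. Cd81, a tetraspanin of the cell surface, read 13.67, 13.92 and 13.74 log2 in the mutants, against 13.15, 13.20 and 13.42 log2 in the controls, a difference of 0.52 ± 0.12 (SE; limma adjusted p = 0.217). Kcnq1, a cardiac potassium channel subunit, read 8.29, 8.53 and 9.12 log2 in the mutants, against 7.63, 7.78 and 7.90 log2 in the controls, a difference of 0.88 ± 0.22 (SE; limma adjusted p = 0.251). Both lie in the imprinted domain that also holds Cdkn1c, and in both every mutant lay above every control. Sgce, a sarcoglycan, differed by 0.33 ± 0.11 log2 (SE; limma adjusted p = 0.388). Airn differed by 0.31 ± 0.11 (SE; limma adjusted p = 0.415) by its brightest probe, while its 3 other probes gave -0.31, 0.08 and -0.28.

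**Figure D4:**
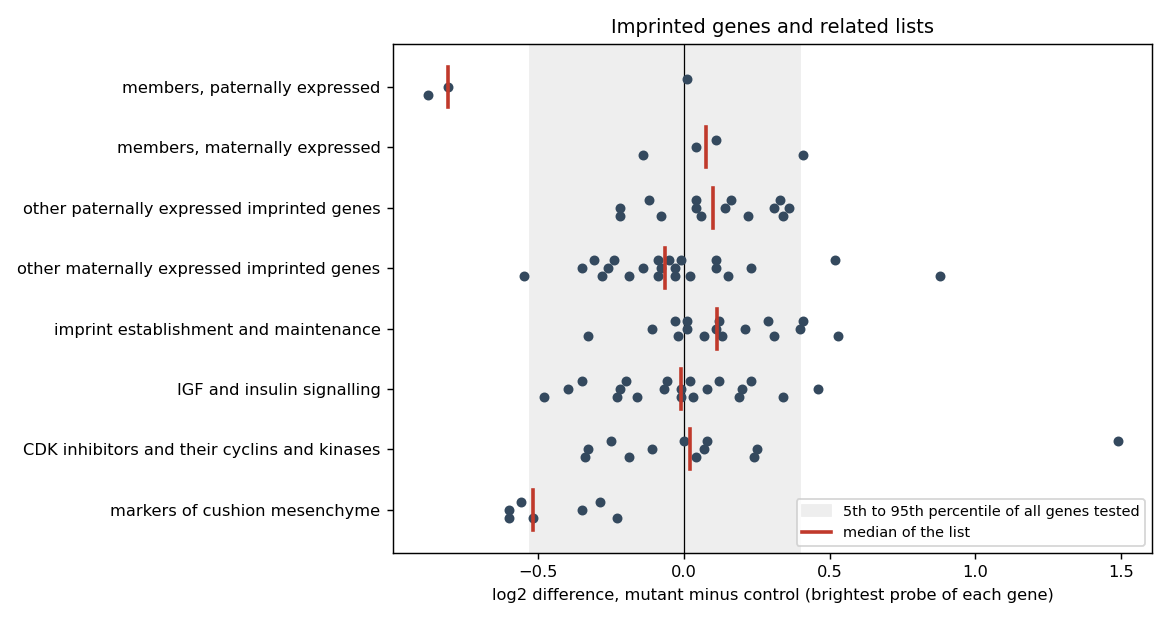
Mutant minus control log2 difference (horizontal axis) of every tested gene in the imprinted, pathway and cushion marker lists, by its brightest probe, with the list median as a red bar and the 5th to 95th percentile of all genes shaded (-0.53 to 0.40). Genes saturated on every array are left out, no gene shown passed the adjusted test, and the list medians lie between -0.07 and 0.12 except for the paternally expressed members (-0.81) and the cushion markers (-0.52).

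Genes that set and keep imprints, such as DNA methyltransferases and Polycomb subunits, gave 12 of 16 differences above 0, against 7869 of 15012 genes. The median of the 16 was 0.12 log2, against 0.01 over all genes, and 0 passed. Ezh2, the Polycomb methyltransferase, read 10.27, 10.22 and 10.10 log2 in the mutants, against 9.51, 9.63 and 9.86 log2 in the controls, a difference of 0.53 ± 0.12 (SE; limma adjusted p = 0.215). Eed, another subunit of the same complex, differed by 0.31 ± 0.11 (SE; limma adjusted p = 0.391). The groups did not overlap for 3 of the 16 (18.8%), Ezh2 and Eed among them, all higher in the mutants. Of all genes, 15.2% did not overlap (9.71% higher).

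The IGF and insulin pathway, in which Igf2, Igf2r and Grb10 act, gave 9 of 20 differences above 0 and 11 below 0, with a median of -0.01 log2 and 0 passing. The groups did not overlap for 4 of the 20 (20%), all lower in the mutants, against 15.2% of all genes (5.48% lower). Igf1, a ligand of the pathway, read 8.76, 9.05 and 9.06 log2 in the mutants, against 9.47, 9.31 and 9.30 log2 in the controls, a difference of -0.40 ± 0.12 (SE; limma adjusted p = 0.327). Igfbp4, which binds IGFs outside the cell, differed by -0.48 ± 0.15 (SE; limma adjusted p = 0.359), and its second probe by -0.14.

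Cyclin-dependent kinase inhibitors and their partners, the family of Cdkn1c, split 6 above and 6 below 0. The groups did not overlap for 3 of the 12 (25%), 1 higher and 2 lower in the mutants, against 15.2% of all genes. Cdkn1a, which encodes the inhibitor p21, read 9.75, 10.15 and 10.10 log2 in the mutants, against 8.94, 8.67 and 7.91 log2 in the controls. The difference was 1.49 ± 0.27 log2 (SE; limma adjusted p = 0.151), and the groups do not overlap, whereas those of Cdkn1c do. Ccne2, a cyclin of S phase entry, differed by 0.24 ± 0.11 (SE; limma adjusted p = 0.516).

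Between 74.1% and 78.2% of the spots were above background on each array and between 184 and 263 spots were saturated, and the number of arrays limits the precision. Dicer1 read 6.74, 6.73 and 6.68 log2 in the mutants, against 7.82, 7.63 and 7.71 log2 in the controls (limma adjusted p = 0.036). The position of its probe relative to the deleted part is not known here. Nkx2-5 differed by -0.23 ± 0.21 log2 (SE; limma adjusted p = 0.73). Of 10 cardiomyocyte markers, 9 had a probe and 8 were above background on all 6 arrays. With 2 left out as saturated on every array, 4 of 7 gave a difference above 0 and 3 below 0. Their median was 0.16 log2, and 0 passed. Tnnt2, cardiac troponin T, differed by 0.46 ± 0.19 log2 (SE; limma adjusted p = 0.495). Myh7, a myosin heavy chain gene, differed by -0.45 ± 0.38 log2 (SE).

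The members' differences depended on which arrays were compared, most of all for Plagl1. When each array was left out in turn, no member passed the test in any of the 6 fits. Across those fits the Dlk1 difference stayed between -0.95 and -0.58 log2, that of Grb10 between 0.36 and 0.47, and that of Plagl1 between -1.76 and -0.37. Without mutant 3 and control 3, Dlk1 (-0.80, limma adjusted p = 0.0432), Grb10 (0.46, adjusted p = 0.0191) and Plagl1 passed, in a fit in which 3921 probes of all genes passed.

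**Figure D5:**
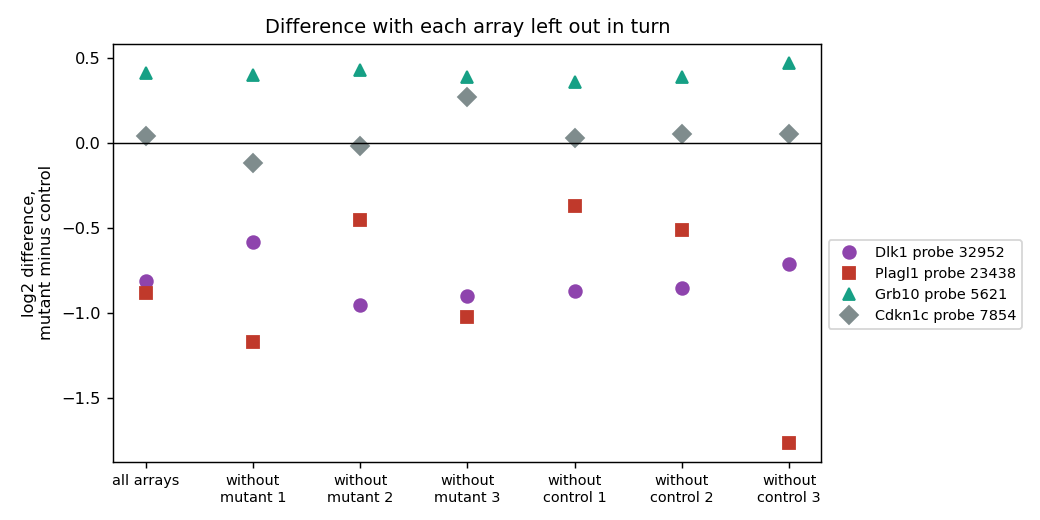
Mutant minus control log2 difference (vertical axis) of Dlk1, Plagl1, Grb10 and Cdkn1c with all 6 arrays and with each array left out in turn (horizontal axis). Dlk1 stays below 0 and Grb10 above 0 in every fit, Plagl1 moves between -1.76 and -0.37, and Cdkn1c lies on either side of 0.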

How the data were processed

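The authors deposited, per the file headers, each spot's mean intensity, its median background, a subtracted intensity and a normalized intensity, a flag and a signal strength score; the values show the subtracted intensity to be the first minus the second (largest difference 1e-04) and the normalized one to be it divided by a factor per array (66.1 to 82.8). The series' value table holds the normalized intensities of spots flagged good, with column medians of 1.83 to 2.06. The sources used here do not name the scanner software.

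Spot means were corrected by normexp (offset 50), and the 21880 spots with a listed gene were log2-transformed and quantile-normalized in limma 3.58.1 (R 4.3.3). A probe was tested when above background on at least 3 of 6 arrays. Mutants were set against controls with lmFit and eBayes (two-sided, no block). Normexp with an offset pulls differences of dim probes towards 0. The fit was tested on simulated data. Gene names follow the platform annotation, checked against RefSeq by gene number (21541 probes matched).

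The members and lists were chosen with earlier results of these data known. Beside the members, the 2 genes with the smallest p are named from each imprinted and pathway list, as no list gene passed, and the 3 closest profiles are given for members spanning over 1 log2 unit. Marker genes, the sex-linked genes, Igf2os and the other genes of the chromosome 12 domain were named after their values were seen. Alternatives covered the background correction, normalization, filter, array weights, inferred slide, pairing and each array left out.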

Additional observations from a re-analysis of the deposited data

How the results depend on the processing

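Of 245 refits of the 13 member probes, 223 kept the direction and the side of the threshold, 6 passed the test that had not before, 16 changed sign without a call and 0 reversed a call. The sign changes were in Mest, Cdkn1c and 2 Meg3 probes. Against 9 probes passing over all genes, 5 passed with the subtracted intensity, 4 with normexp at offset 0 and 5 with the series value table. With the slide as a block 1338 passed, and no member. That block compares mutants 1 and 2 with control 1 for the members. Leaving out each array in turn gave 0 to 320 passing, 320 without control 3, and no member. Without both arrays of replicate 1 or of replicate 2, 0 passed. Without both of replicate 3, 3921 passed and 3 members, Dlk1, Plagl1 and Grb10. Array weights by limma's gene-by-gene estimate, chosen after seeing the data because the planned estimate did not converge and so was not run, gave 4229 passing and 3 members. These were Dlk1 (-0.72, adjusted p = 0.0225), Plagl1 (-1.81, adjusted p = 0.0334) and Grb10 (0.42, adjusted p = 0.0106), with a weight of 5.85 on control 2 and 0.29 on mutant 3; the cause was not tested. The title numbers were checked as pairs: deviations of same-numbered arrays correlated at 0.014, -0.48 and -0.38 over probes. Those of differently numbered arrays correlated between -0.5 and 0.56. With 3 arrays a group, these values cannot decide whether the numbers mark pairs. A block by title number left 0 probes and 0 members passing (limma, Dicer1 adjusted p = 0.517). Dicer1 also missed the threshold in 5 of the 6 fits without an array. Saturation limits H19, and background limits Peg3 and the second Dlk1 probe. The bright Grb10 probe lay at the edge of the saturated range on the mutant arrays, so its difference, spread and interval may be affected. This was not tested.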
